A study of Mus musculus with 2 samples.

Results

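CXC chemokines are small secreted proteins that guide leukocytes through G protein-coupled receptors. The 9 genes described here, Cxcl1, Cxcl2, Cxcl3, Cxcl5, Cxcl9, Cxcl10, Cxcl16, Pf4 and Ppbp, were chosen by gene symbol from the 54751 gene rows of the count table, and 1 row was found for each. They were measured by RNA-seq in MDSCs (myeloid-derived suppressor cells, a mixed population of immature granulocytic and monocytic cells that can restrain T cells) grown from the bone marrow of wild-type mice. The mrWNT2 culture was given mrWNT2, a recombinant form of the secreted ligand WNT2, and the control culture was given vehicle. Both were treated on day 0 and day 3 and taken on day 6. Each group was 1 library, with 12621110 counts for mrWNT2 and 13474453 for control. The dose, the age and number of the mice and the growth factors used are not given in the sources used here.

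In mouse, CXC chemokines fall into groups by receptor and source. CXCL1, CXCL2, CXCL3, CXCL5 and the processed product of Ppbp carry a glutamate-leucine-arginine (ELR) motif before the paired cysteines and attract neutrophils through CXCR2. CXCL9 and CXCL10 are induced by interferons and attract activated T cells and NK cells through CXCR3. PF4, also called CXCL4, and the Ppbp product are best known as cargo of platelet alpha granules. CXCL16 is made as a transmembrane protein that binds CXCR6 and oxidised lipoprotein and is shed by metalloproteases. In myeloid cells, transcription of the ELR chemokines is a classical output of NF-kB, and their messenger RNAs are short-lived.

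The promoters of 6 members are shown, 4 of genes that were higher in mrWNT2 (Cxcl1, Cxcl2, Cxcl3 and Cxcl10) and 2 of genes that were lower (Ppbp and Pf4), so that their letters can be read beside the counts. RefSeq promoter windows (GRCm38.p6, 250 bases before the start of transcription to 50 after, 300 in all) were matched for 7 of the 9 genes, all but Cxcl5 and Cxcl16. The stretches below run 5′ to 3′ on the strand of the gene and end 31 bases before the start. Capitals mark a match, on either strand, to the NF-kB pattern GGGANNNNCC or to the interferon-stimulated response element pattern GAAANNGAAA.
Cxcl1, chr5:90891115-90891214, forward strand: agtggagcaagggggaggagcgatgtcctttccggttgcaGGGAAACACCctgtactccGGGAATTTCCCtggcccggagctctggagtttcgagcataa
Cxcl2, chr5:90903769-90903868, forward strand: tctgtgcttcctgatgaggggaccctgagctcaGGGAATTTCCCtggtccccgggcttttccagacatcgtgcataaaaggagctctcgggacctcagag
Cxcl3, chr5:90785971-90786070, forward strand: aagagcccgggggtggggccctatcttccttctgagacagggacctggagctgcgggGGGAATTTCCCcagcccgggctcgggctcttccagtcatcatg
Cxcl10, chr5:92348920-92349119, reverse strand: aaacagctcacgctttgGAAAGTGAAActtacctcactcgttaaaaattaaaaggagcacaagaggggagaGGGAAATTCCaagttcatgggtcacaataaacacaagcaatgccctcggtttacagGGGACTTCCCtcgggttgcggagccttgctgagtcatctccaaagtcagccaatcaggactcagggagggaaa
Ppbp, chr5:90768388-90768487, forward strand: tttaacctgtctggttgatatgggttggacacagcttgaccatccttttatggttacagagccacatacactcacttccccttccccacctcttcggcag
Pf4, chr5:90772305-90772404, forward strand: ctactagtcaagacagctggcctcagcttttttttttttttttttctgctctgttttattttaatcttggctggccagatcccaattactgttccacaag

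The longest run of letters that Cxcl1, Cxcl2 and Cxcl3 shared before the start of transcription was GGGAATTTCCC, 11 bases that matched the NF-kB pattern on both strands. It began 71 bases before the start in Cxcl1, 97 in Cxcl2 and 73 in Cxcl3. The run was found because these 3 genes share it, and it was present on either strand in 14 of 32851 promoter windows of the genome, or 0.0426%. Windows of Cxcl1, Cxcl2 and Cxcl3 are among those 14, and their match was fixed by the choice of the run. The pattern GGGANNNNCC, which overlaps it, was present in 20.7% of windows and in 5 of the 7 members matched, namely Cxcl1, Cxcl2, Cxcl3, Cxcl9 and Cxcl10. The pattern GAAANNGAAA was present in 3.44% of windows and in Cxcl10 alone among the 7. Neither TTCNNNGAA, the gamma-activated site (8.3% of windows), nor the TCF/LEF core CTTTGAT or CTTTGAA, through which beta-catenin acts (8.65% of windows), was found in the 7 windows. These are matches of letters in short windows and do not show that a factor was bound.

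Genes that mark myeloid cells were detected in both cultures, and macrophage genes, given below, were detected as well. Their RNA does not show whether the cells could restrain T cells. Itgam, which encodes CD11b, had 477 CPM (CPM is the count divided by library size after TMM scaling) in mrWNT2 and 495 CPM in control, and the monocytic marker Ly6c2 had 663 and 700 CPM in the same order. The granulocytic marker Ly6g had 86.3 CPM in mrWNT2 and 173 CPM in control. With 1 library per group there is no spread between replicates, no test could be run, and every fold below compares the libraries rather than the conditions. Bracketed ranges are exact 95% binomial (Clopper-Pearson) intervals of the fold from the counts. They cover counting error only, and amplified copies of a molecule count as separate reads.

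CXC chemokine genes moved in opposite directions. Of the 9 genes, 8 had a mean of at least 1 CPM, and all 8 reached 1 CPM in each library. Cxcl1, Cxcl2, Cxcl3, Cxcl10 and Cxcl16 (5 of 8) stood 2-fold or more above control in mrWNT2, and Pf4 and Cxcl5 (2 of 8) stood 2-fold or more below it. Of all 12856 genes past the same minimum, 3.38% stood 2-fold or more above control and 2.49% 2-fold or more below. The median log2 ratio of the 8 genes was 1.14, against 0.02 over all 12856. The interval of the fold lay above 1 for the 5 higher genes and below 1 for the other 3.

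**Figure D1:**
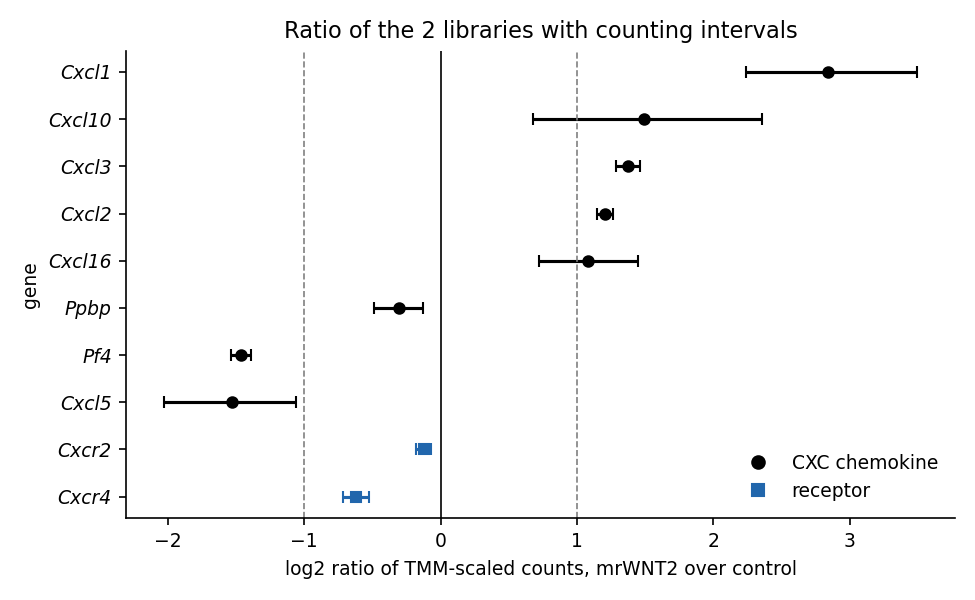
Log2 ratio of TMM-scaled counts, mrWNT2 over control, for the 8 CXC chemokines measured (circles) and the 2 receptor genes measured (squares), with 95% counting intervals; each group is 1 library and dashed lines mark 2-fold. Cxcl1 stands highest at 2.84 and Cxcl5 lowest at -1.53, and no interval touches 0.

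Among the ELR neutrophil attractants, Cxcl2 had the most counts, though its lead over Cxcl3 per length depended on the gene length used, as given with the levels. Cxcl2 (ENSMUSG00000058427, chromosome 5, 90903871 to 90905938, forward strand, GRCm38) had 7795 counts in mrWNT2 and 3555 in control, or 613 and 266 CPM. It was 2.31-fold higher in mrWNT2 (2.22 to 2.40). In absolute terms its gain of 347 CPM ranked 13th of the 12856 genes. Cxcl3 (ENSMUSG00000029379, chromosome 5, 90786103 to 90789600, forward strand), which encodes a close paralog, had 3515 counts in mrWNT2 and 1425 in control, or 276 and 107 CPM. It was 2.59-fold higher (2.44 to 2.76), and its gain of 170 CPM ranked 49th. Both genes were thus well covered, and their counting intervals were narrow.

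Cxcl1 (ENSMUSG00000029380, chromosome 5, 90891241 to 90893115, forward strand), which encodes KC, a neutrophil attractant of many tissues, had the widest relative difference of the 8 genes. It had 177 counts in mrWNT2 and 26 in control, or 13.9 and 1.94 CPM. The fold was 7.16 (4.73 to 11.3), which ranked 62nd of 12856 from the top. Even so, Cxcl1 remained a minor transcript beside Cxcl2, whose counts were far higher in both libraries. Cxcl5 (ENSMUSG00000029371, chromosome 5, 90759360 to 90761624, forward strand), which encodes LIX, went the other way from Cxcl1, Cxcl2 and Cxcl3. It had 49 counts in mrWNT2 and 149 in control, or 3.85 and 11.1 CPM, and was 2.89-fold lower in mrWNT2 (2.08 to 4.08). Its fold ranked 89th of 12856 from the bottom.

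The folds of the ELR genes were compared with each other directly from the counts, which needs no scaling between libraries. The fold of Cxcl3 exceeded that of Cxcl2 by 1.12 times (exact 95% interval 1.04 to 1.21), so these 2 folds differed slightly beyond counting error. The fold of Cxcl1 exceeded that of Cxcl3 by 2.76 times (1.81 to 4.36). Between Cxcl1 and Cxcl5 the folds differed by 20.5 times (11.9 to 36.3), and the order of the genes was reversed: Cxcl1 had 3.61 times the counts of Cxcl5 in mrWNT2 and 0.174 times in control. Summed over Cxcl1, Cxcl2, Cxcl3 and Cxcl5, transcripts took 907 CPM in mrWNT2 and 385 CPM in control, a sum that mostly reflects Cxcl2 and Cxcl3. Ppbp, whose product also carries the ELR motif, is left out of this sum and given with the platelet-type genes.

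The platelet-type chemokines were lower in mrWNT2. Pf4 (ENSMUSG00000029373, chromosome 5, 90772435 to 90773383, forward strand), whose product binds heparin-like glycans, had 1909 counts in mrWNT2 and 5540 in control, or 150 and 414 CPM. It was 2.76-fold lower (2.62 to 2.91), and its loss of 264 CPM ranked 25th of the 12856 genes. Ppbp (ENSMUSG00000029372, chromosome 5, 90768518 to 90770063, forward strand), which encodes the precursor of neutrophil-activating peptide 2, had 461 counts in mrWNT2 and 600 in control, or 36.3 and 44.9 CPM. It was 1.24-fold lower (1.09 to 1.40). The fold of Ppbp was 2.23 times that of Pf4 (1.95 to 2.55), so the pair did not move alike. The folds of Pf4 and Cxcl5 could not be told apart at this depth (1.05 times, 0.751 to 1.48).

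Markers of other cells stood beside these values. Over all 12856 genes, 3.38% stood 2-fold or more above control and 2.49% as far below. Of 12 megakaryocyte and platelet genes, 10 were measured, none differed by 2-fold, and their log2 ratios ran between -0.37 and 0.78 with a median of -0.06. Their summed level was 159 CPM in mrWNT2 and 145 CPM in control. The defining integrin gene Itga2b, which encodes CD41, had 66.9 and 68.1 CPM in that order, while Gp1bb was at 0 counts in both libraries. Of 8 macrophage genes, in contrast, 5 stood 2-fold or more below control in mrWNT2, 0 stood 2-fold or more above it, and the median log2 ratio was -1.28. The summed macrophage level was 1505 CPM in mrWNT2 and 2140 CPM in control. The mannose receptor gene Mrc1 was 3.07-fold lower (2.96 to 3.19), and the complement gene C1qb 2.5-fold lower (2.30 to 2.73). Adgre1, which encodes F4/80, was 1.8-fold higher (1.73 to 1.86). Pf4 is transcribed in macrophages as well as megakaryocytes. The part of macrophage-type cells in its difference was not tested, and in bulk RNA fewer cells of a type and less RNA per cell cannot be told apart.

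Granulocytes and monocytes can also make CXC chemokines, and the medians of their gene lists differed less than that of the macrophage list. The 8 neutrophil genes had a median log2 ratio of -0.38 and a summed level of 66436 CPM in mrWNT2 and 82376 CPM in control, and 2 of 8, Ly6g and Retnlg, stood 2-fold or more below control. The 6 monocyte genes had a median of -0.03 and a summed level of 3111 CPM in mrWNT2 and 2957 CPM in control, with Csf1r 2.37-fold higher (2.25 to 2.50). F13a1 was the largest part of the monocyte sum (1409 CPM in mrWNT2 and 1410 CPM in control). That list also holds the general myeloid gene Itgam, so it does not measure monocytes alone. Stromal and endothelial genes, whose cells are a source of CXCL1, CXCL5 and CXCL12, summed to 83.7 CPM in mrWNT2 and 74.0 CPM in control. Most of that sum was Pecam1 (47.9 CPM in mrWNT2 and 41.6 CPM in control) and Lepr (22.6 and 2.84 CPM in that order). The sum therefore does not describe the other genes of the list. Of the 8 of 12 measured, 4 stood 2-fold or more below control in mrWNT2, among them the collagen genes Col1a1 and Col1a2, and Lepr was 7.94-fold higher. The defining endothelial gene Cdh5 had 0 counts in mrWNT2 and 1 in control. The part of these cells in the differences of Cxcl1 and Cxcl5 was not tested. Dendritic cell genes summed to 28.2 CPM in mrWNT2 and 32.9 CPM in control, and T and B cell genes to 5.50 and 7.18 CPM in that order.

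Of the CXCR3 ligands, 1 of 2 was detected. Cxcl10 (ENSMUSG00000034855, chromosome 5, 92346638 to 92348889, reverse strand) had 48 counts in mrWNT2 and 18 in control, or 3.77 and 1.35 CPM. It was 2.80-fold higher (1.60 to 5.12), a wide interval that reflects the few counts. The gene lies within Art3 on the other strand, which had 1 count in mrWNT2 and 2 in control. Cxcl9 (ENSMUSG00000029417, chromosome 5, 92321347 to 92328079, reverse strand), which in macrophages is induced chiefly by interferon gamma, had 0 counts in both libraries. At 3 counts, about the upper limit that 0 allows, this corresponds to at most 0.236 CPM in mrWNT2 and 0.224 CPM in control. The gap between the fold of Cxcl10 and that of Cxcl3 was within counting error (1.08 times, 0.615 to 1.98).

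Cxcl16 (ENSMUSG00000018920, chromosome 11, 70453983 to 70459984, reverse strand) had 197 counts in mrWNT2 and 98 in control, or 15.5 and 7.33 CPM. It was 2.11-fold higher (1.65 to 2.72). It lies just inside the 2-fold limit, and with 1 CPM added to both libraries its log2 ratio was 0.99, just outside. Its fold did not differ from that of Cxcl2 beyond counting error (Cxcl2 over Cxcl16, 1.09 times, 0.844 to 1.40). The 552 bases at its 5′ end overlap Zmynd15 on the other strand, a gene with 22 counts in mrWNT2 and 7 in control. The strand setting of the counting was not given in the material at hand, and reads of the overlap cannot be assigned with certainty. Of the proteins that shed CXCL16, ADAM10 and ADAM17, the gene Adam10 had 233 CPM in mrWNT2 and 232 CPM in control. Adam17 had 211 CPM in mrWNT2 and 138 CPM in control and was 1.53-fold higher (1.44 to 1.62).

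**Figure D2:**
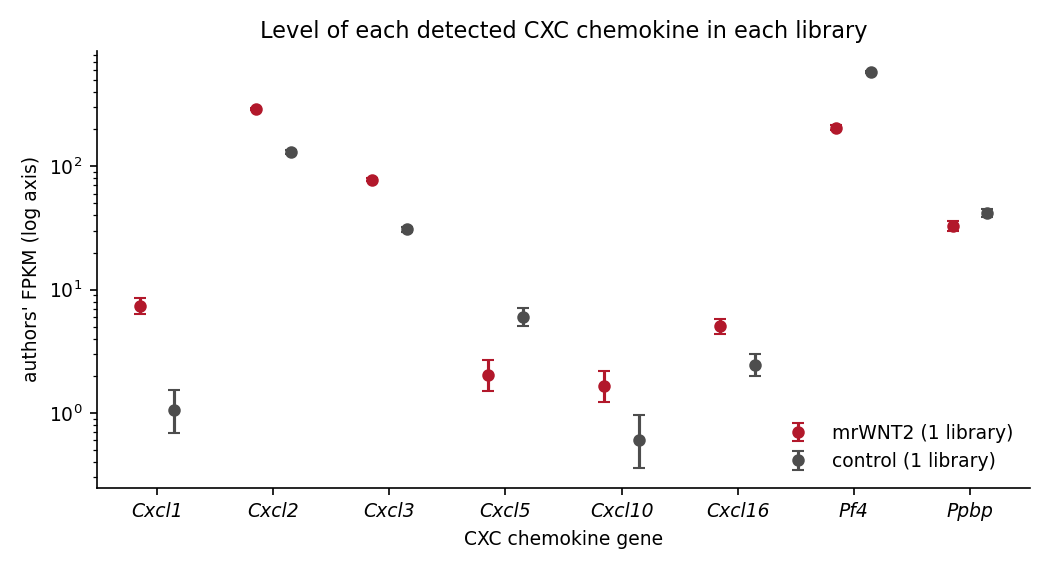
The authors' FPKM (a level corrected for gene length and depth) of the 8 detected CXC chemokines in the mrWNT2 library (red, left of each pair) and the control library (grey), on a log axis, with exact 95% Poisson intervals from the counts. Cxcl2 and Pf4 lead in both libraries, and the red point is above the grey one for Cxcl1, Cxcl2, Cxcl3, Cxcl10 and Cxcl16.

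Levels of different genes were compared per length, with the FPKM of the authors' deposited table. In mrWNT2 the order was Cxcl2 (293 FPKM), Pf4 (206), Cxcl3 (78.1), Ppbp (33.1), Cxcl1 (7.34), Cxcl16 (5.07), Cxcl5 (2.04) and Cxcl10 (1.66). In control it was Pf4 (581 FPKM), Cxcl2 (130), Ppbp (41.9), Cxcl3 (30.8), Cxcl5 (6.05), Cxcl16 (2.45), Cxcl1 (1.05) and Cxcl10 (0.605). The leading gene therefore was Cxcl2 in mrWNT2 and Pf4 in control. The Poisson intervals of neighbours overlapped only at the low end, for Cxcl5 and Cxcl10 in mrWNT2 (1.51 to 2.70 and 1.22 to 2.20 FPKM) and for Cxcl1 and Cxcl10 in control (0.685 to 1.54 and 0.358 to 0.956 FPKM).

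Of the summed FPKM of the 9 genes, Pf4 took 32.9% in mrWNT2 and 73.2% in control, and Cxcl2 took 46.8% and 16.4% in that order. The ELR genes other than Ppbp, namely Cxcl1, Cxcl2, Cxcl3 and Cxcl5, took 60.8% of the sum in mrWNT2 and 21.1% in control. With these lengths Ppbp took 5.28% in both. The sum itself was 626 FPKM in mrWNT2 and 794 FPKM in control, 1.27-fold lower, whereas the summed counts of the same genes were 1113 CPM in mrWNT2 and 853 CPM in control, 1.30-fold higher. The direction of the total thus depends on whether length is divided out, since Pf4 is the shortest of the 9 gene models (721 bases).

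Gene length itself was uncertain. The deposited lengths of Cxcl1, Cxcl2, Cxcl3 and Cxcl10 equal the whole span of the gene, introns included (1875, 2068, 3498 and 2252 bases), while the longest protein-coding transcripts of GENCODE M21 are 953, 1859, 1016 and 1353 bases. With those transcript lengths, an alternative chosen after the data were seen, Cxcl3 reached 269 FPKM in mrWNT2 and 106 FPKM in control and passed Pf4 (252 FPKM) in mrWNT2. Cxcl2 had 326 FPKM in mrWNT2 and 145 FPKM in control with the same lengths, nearer to Cxcl3 than with the deposited ones. Pf4 then took 27.9% of the sum in mrWNT2 and 70.0% in control, and Ppbp 3.65% in mrWNT2 and 4.12% in control. The folds between libraries do not depend on length.

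**Figure D3:**
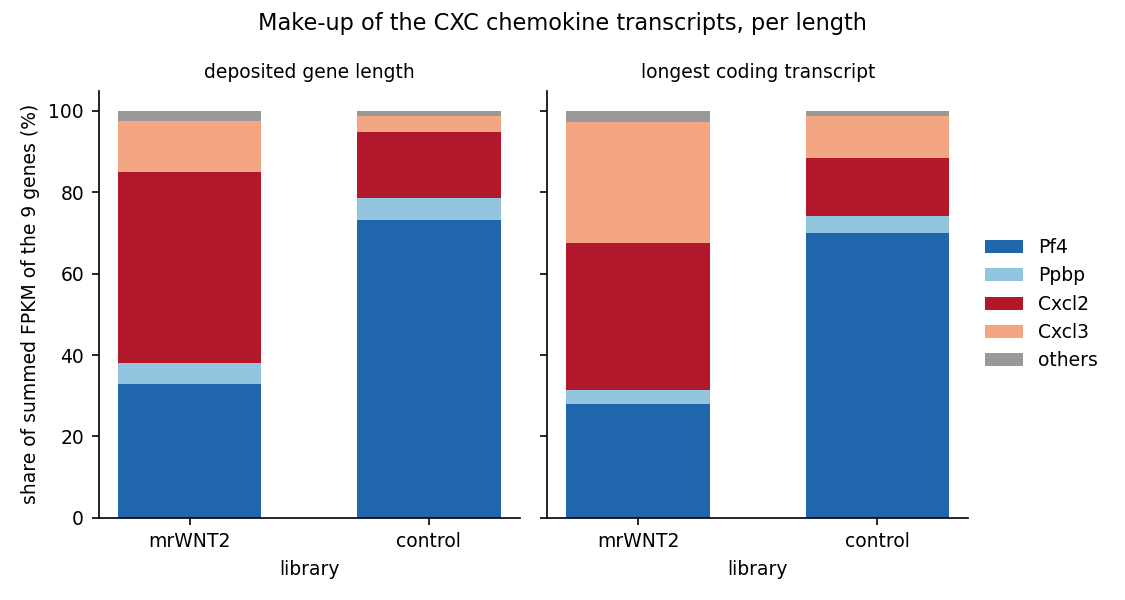
Share of each gene in the summed FPKM of the 9 CXC chemokines, in the mrWNT2 library (left bar of each panel) and the control library (right bar), with the deposited gene length and with the length of the longest protein-coding transcript. Pf4 takes 32.9% in mrWNT2 and 73.2% in control with the deposited length, and 27.9% and 70.0% with the other.

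The 6 members with an ELR or platelet name are neighbours on chromosome 5, and their directions followed their order. The cluster spans 147 kb from Cxcl5 to Cxcl2, with 7 protein-coding genes, all on the forward strand. Its first 3 genes, Cxcl5, Ppbp and Pf4, were lower in mrWNT2, with log2 ratios of -1.53, -0.31 and -1.46. After a gap of 12.7 kb, Cxcl3 was higher at 1.38, and Cxcl1 and Cxcl2, at the far end, were higher at 2.84 and 1.21. Cxcl15, the lung-type ELR gene between Cxcl3 and Cxcl1, had 1 count in mrWNT2 and 0 in control. Cxcl10 and Cxcl9 lie 1.44 Mb or less beyond Cxcl2 on the same chromosome, on the reverse strand, and Cxcl16 is on chromosome 11. No test of position was made, and 6 genes of 1 cluster are not independent.

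**Figure D4:**
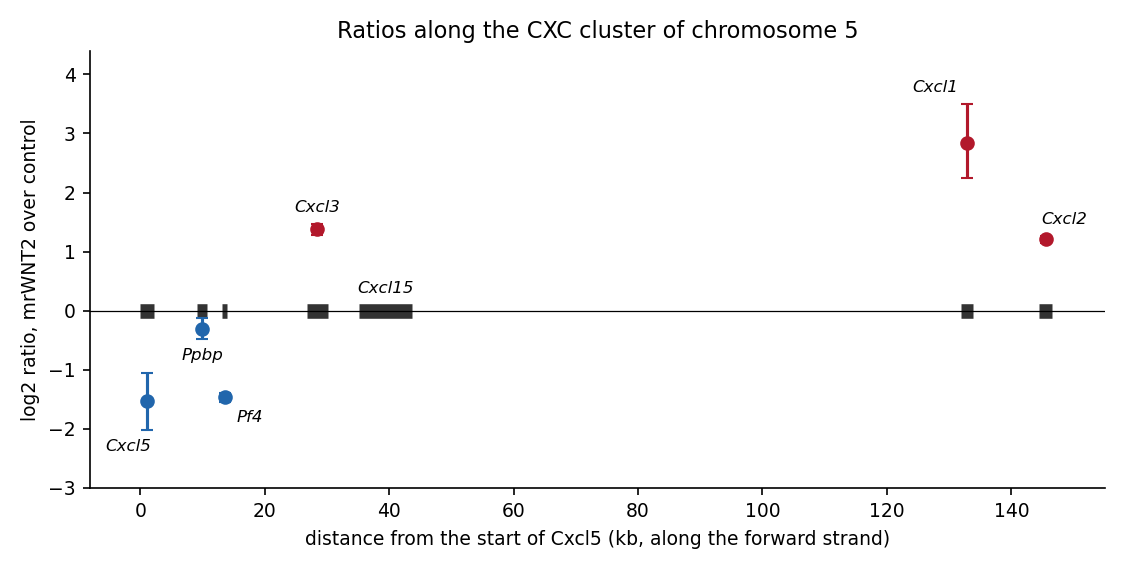
Log2 ratio, mrWNT2 over control, with 95% counting intervals, of the protein-coding genes of the CXC cluster, plotted by distance from the start of Cxcl5; black boxes on the zero line are the gene models. Cxcl5, Ppbp and Pf4 at the left lie below 0 and Cxcl3, Cxcl1 and Cxcl2 above it, and Cxcl15, with 1 count in mrWNT2 and 0 in control, has no ratio.

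Little sequence of the members' protein-coding transcripts was shared with other genes. In GENCODE M21 transcripts, 61 of the 50-base windows of Cxcl2 (3.28%) were identical in Cxcl3, which is 6.31% of the windows of Cxcl3. No window of Cxcl1, Cxcl10, Cxcl16, Pf4 or Ppbp was found in another gene, and for Cxcl5 and Cxcl9 the share was 0.871% and 0.493%. Read length was not found in the labels, and the split of reads between Cxcl2 and Cxcl3 is uncertain at least to that extent. Bases of the counted gene models outside those transcripts, such as introns, were not searched.

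The other CXC ligands of the mouse were nearly silent: 0 of 6 reached a mean of 1 CPM. Cxcl13, a B cell attractant, had 17 counts in mrWNT2 and 1 in control (ratio 17.9, interval 2.80 to 747). Cxcl12, the bone marrow retention ligand, had 3 counts in mrWNT2 and 9 in control (ratio 0.351, 0.061 to 1.40), and Cxcl14 had 1 and 5 in that order. Cxcl11 and Cxcl17 had 0 counts in both libraries. Cxcl11 is annotated as a polymorphic pseudogene.

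Among 8 receptor genes, 2 were measured, and neither differed by 2-fold. Cxcr2, the receptor of the ELR ligands, had 389 CPM in mrWNT2 and 425 CPM in control, 1.09-fold lower (1.05 to 1.13). Cxcr4, the receptor of CXCL12, had 110 CPM in mrWNT2 and 170 CPM in control, 1.54-fold lower (1.44 to 1.64). Receptors of the other ligands were scarce. Cxcr3 had 5 counts in mrWNT2 and 18 in control, Cxcr6 had 7 and 5, Cxcr1 had 6 and 8, and the scavenging receptor Ackr3 had 1 and 6, each in that order. Cxcr5 had 3 counts in mrWNT2 and 0 in control, and the Duffy antigen gene Ackr1 had 1 and 0. Cxcl2, Cxcl3 and their receptor Cxcr2 each had over 100 CPM in both libraries, while Cxcr3 and Cxcr6 had a mean below 1 CPM.

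Genes of pathways tied to CXC chemokines were followed by list, and the lists hold feedback and response genes as well as inducers. Whether any of these genes acted on the chemokines here was not tested. Beside every list count stands the share of all 12856 genes, 3.38% at 2-fold or more above control and 2.49% as far below. Of 17 genes of NF-kB induction and feedback, all measured, 8 stood 2-fold or more above control in mrWNT2, 0 stood as far below it and 9 lay between, with a median log2 ratio of 0.96. The 4 largest were the cytokine genes Il1a (19.9-fold) and Il1b (5.91-fold) and the inhibitor genes Tnip3 (8.97-fold, 5.24 to 16.5) and Tnfaip3 (3.33-fold). Nfkbiz, which encodes a nuclear cofactor of NF-kB, was 2.42-fold higher (2.19 to 2.67). The subunit genes Rela and Rel were each 1.04-fold higher, with intervals that included 1. Of 8 genes of messenger RNA decay and stability, 1 stood 2-fold or more above control and 7 lay between (median 0.04). That gene was Zc3h12a, which encodes the ribonuclease Regnase-1 and was 2.47-fold higher (2.24 to 2.73). Zfp36, which encodes tristetraprolin, was 1.15-fold lower (1.09 to 1.2).

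By the medians of their lists, the measured interferon-response genes did not share the direction of Cxcl10 as a group. The list of 20 interferon gamma response genes also holds the receptor genes Ifngr1 (1.24-fold lower) and Ifngr2 (1.24-fold higher). Of the 20 genes, 18 were measured, with 2 genes 2-fold or more above control, 1 as far below it and 15 between (median 0.02). The higher genes encode guanylate-binding proteins, Gbp5 (2.96-fold, 1.8 to 5.06) and Gbp3 (2.34-fold, 1.31 to 4.33), and the lower gene was the class II transactivator gene Ciita (2.43-fold, 1.38 to 4.45). Irf1, which encodes an interferon-induced transcription factor, was 1.16-fold lower (1.03 to 1.30). Of 16 genes induced by type I interferon, 12 were measured, with 1 higher (Oas1a, 2.01-fold), 1 lower (Mx1, 2.72-fold, from 7 counts in mrWNT2 and 20 in control) and 10 between (median 0.03). The type I median was 0.12 without a minimum and 0.19 with a mean of at least 10 CPM. Genes below the minimum of 1 CPM are left out of these list counts, and they had more counts in mrWNT2. They were Oasl1 (16 counts in mrWNT2 and 1 in control), Gbp6 (11 and 0), Ifit1 (10 and 5), Ifit3 and Mx2 (2 and 0 each) and Iigp1 (1 and 0). Of 7 proteases that trim CXC chemokines, 6 were measured and none passed 2-fold. Mmp9, whose product can activate or degrade ELR chemokines, came nearest, at 1.98-fold lower (1.92 to 2.05), and Mmp8 was 1.04-fold lower.

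**Figure D5:**
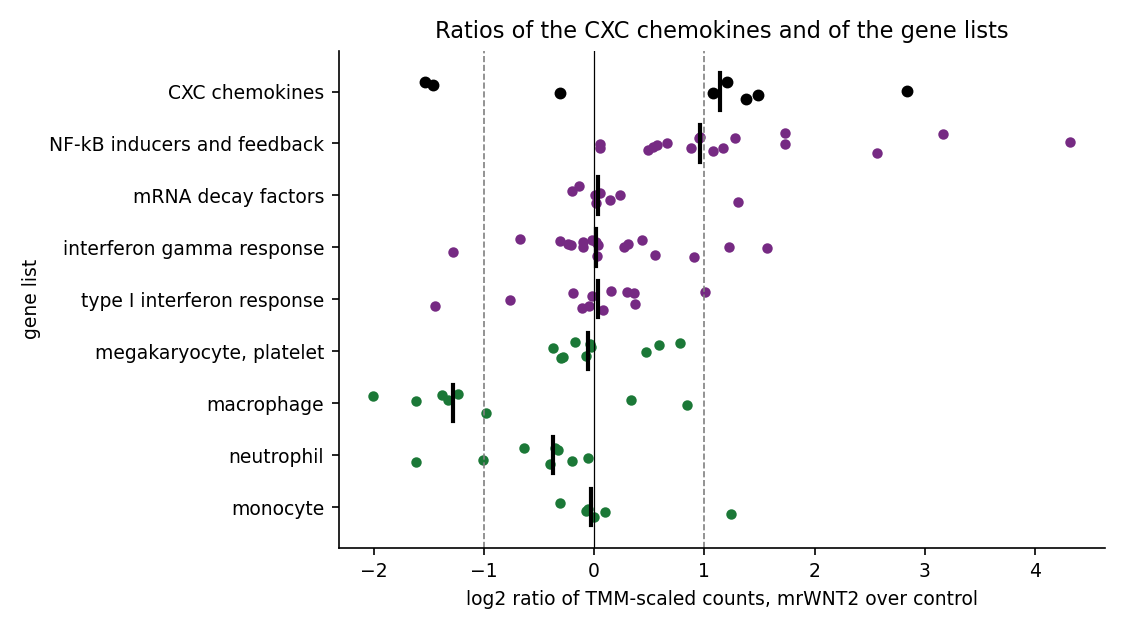
Log2 ratio, mrWNT2 over control, of the 8 CXC chemokines measured and of the measured genes of 4 pathway lists (purple) and 4 cell type marker lists (green); bars are medians and dashed lines mark 2-fold. The NF-kB list lies wholly above 0 with a median of 0.96, both interferon lists centre near 0 (0.02 and 0.03), and the macrophage list has a median of -1.28.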

How the data were processed

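RNA-seq of 1 mrWNT2 and 1 control culture was used. The authors deposited gene-level raw counts and, in a second table, FPKM, with 1 column per library in each. Per the submitters' processing notes, CASAVA 1.8, fastp, HISAT2 2.0.5, featureCounts 1.5.0-p3, DESeq2 1.20.0 and GRCm38 (mm10) were named. The gene length of the deposited tables was also used. Over 10078 genes with more than 50 counts in each library, log2 ratios from FPKM and from DESeq2-scaled counts differed by at most 1.2e-08. Gene models without an identifier (219) held 0.259% of mrWNT2 and 0.222% of control counts and stayed in the totals. All 9 genes had the same start, end and strand in GENCODE M21.

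Counts were scaled with TMM factors (1.01 for mrWNT2, 0.992 for control; edgeR 4.0.16, R 4.3.3) to CPM. Ratios had no pseudocount; a count of 0 was set to 3 as a bound. Clopper-Pearson, Poisson and conditional odds ratio intervals (95%) came from scipy 1.17.1. No test was possible with 1 library per group. The procedure was tested on simulated Poisson counts, which held no variation between cultures and no amplified copies. The 9 genes and the gene lists were chosen with earlier results of these data known. All 9 genes, the other CXC ligands and receptors, and up to 4 list members at least 2-fold higher or lower were named by rule. Other list members and markers are examples chosen after their values were seen. Alternatives were DESeq2 1.42.0, total and upper-quartile scaling, FPKM, a pseudocount, other expression minimums and a fold of 1.5. Protein sequences were not used here.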

Additional observations from a re-analysis of the deposited data

How the results depend on the processing

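No paired analysis was possible because each group had 1 library. Under DESeq2, total-count and upper-quartile scaling and the authors' FPKM, all 8 measured genes kept their direction, and the counts of 5 higher and 2 lower genes did not change. Over these settings the log2 ratio ran between 2.79 and 2.86 for Cxcl1, between 1.03 and 1.10 for Cxcl16 and between -1.52 and -1.44 for Pf4, and the median of all genes between -0.04 and 0.04. With 1 CPM added, Cxcl16 came to 0.99 and 4 genes were at least 2-fold higher. The other genes with few counts moved further under that setting. Cxcl1 went from 2.84 to 2.34, Cxcl10 from 1.49 to 1.03 and Cxcl5 from -1.53 to -1.32. With a mean of at least 10 CPM, 3 members were at least 2-fold higher and 1 lower, because Cxcl1, Cxcl5 and Cxcl10 are then left out. Without a minimum, the count over all genes was 1543 higher and 1270 lower, and at 10 CPM it was 154 and 61. The number of genes past these 2 minimums is not given here, so these counts cannot be read as shares. Of the 12856 genes, 288 were higher and 126 lower with 1 CPM added. At a fold of 1.5, 980 of the 12856 were higher and 902 lower, and the members stayed at 5 and 2. The log2 ratio of the summed FPKM was -0.34, and -0.17 with transcript lengths, which were chosen after the data were seen. Depth limits Cxcl9, Cxcl10 and the weakly expressed receptors and ligands most.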
